A study of Rattus norvegicus with 8 samples.

Results

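The genes described here encode the enzymes that make fatty acids and supply the acetyl-CoA from which they are built. Members were chosen by gene symbol from a list of 10: Acly, Acss1, Acss2, Acaca, Fasn, Elovl6, Scd, Scd2, Fads1 and Fads2. Of these, 9 matched a row of the table of 16871 genes by symbol, and Scd was read from the row Scd1, which RefSeq lists as its synonym. RefSeq also lists Scd as a synonym of Scd2, so which row the symbol Scd stands for is ambiguous. All 10 were among the 11372 genes that passed the filter on low counts and were tested. Transcription was read by BrU-seq: living cells incorporate bromouridine (BrU) into new transcripts, and anti-BrU beads then pull those transcripts out for sequencing. The material was a primary rat neuron culture, labelled as hippocampal but prepared from cortex and hippocampus of newborn (P1-P2) Sprague Dawley pups. The design asks how neurons transcribe when action potentials are blocked, and whether an earlier block alters that response.

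Each culture received 2 treatments, and the groups are named after them, H for vehicle (H2O) and T for tetrodotoxin (TTX), a toxin that blocks sodium channels and with them action potentials. The first treatment, 1 µM TTX or vehicle, began at day 14 in vitro and lasted 24 h. After 48 h without drug, the second, on day 17, lasted 4 h, with 2 mM BrU present for its last 30 min. HH cultures received vehicle each time, HT vehicle and then TTX, TH TTX and then vehicle, and TT received TTX each time, with 2 libraries per group. All groups shared the washes, the medium change and the BrU label. The labels do not say whether replicates came from separate cultures or litters, so the spread behind each p-value could be technical only.

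Fatty acid synthesis starts in the cytosol with acetyl-CoA. Acly releases it from citrate exported by mitochondria, and Acss2 makes it from acetate, while Acss1 carries out the acetate reaction inside mitochondria. Acaca carboxylates acetyl-CoA to malonyl-CoA, Fasn joins malonyl units into palmitate, and Elovl6 lengthens palmitate to stearate. Scd and Scd2 place the first double bond, and Fads1 and Fads2 desaturate the polyunsaturated fatty acids that brain membranes hold in quantity. Many of these genes are known targets of the SREBP transcription factors, which also drive cholesterol synthesis.

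Total counts ran from 3489176 to 4959887 per library. HH replicate 1 stood apart in the activity-response genes, with a summed level of 1791 CPM (counts scaled to a common normalized library total) against 496 to 742 in the other 7 libraries. HH replicate 2 (509), TH replicate 1 (501) and TH replicate 2 (527) lay within the range of the 4 libraries given TTX last (496 to 742). Under the second TTX, averaged over history, 20 of 20 of these genes were below 0 (median log2 change -0.49), against 50.3% of all genes tested. HT against HH had 20 of 20 below 0 (median -0.89), against 49.8% of all genes. TT against TH had 13 of 20 below 0 (median -0.086), against 49.1%. With vehicle second, TH against HH also had 20 of 20 below 0 (median -1.35), against 49.8%. HH replicate 1 is part of both comparisons with HH. Markers of excitatory and inhibitory neurons, astrocytes, the oligodendrocyte lineage and dividing cells were all read, so the cultures held several cell types. In such bulk samples, fewer cells of a type and less RNA per cell cannot be told apart. No gene of the 11372 (0%) passed edgeR's quasi-likelihood test at an adjusted p of 0.05 in any of the 7 comparisons, so every difference below is given as a value that did not pass. Unadjusted p under 0.05 was reached by 738 genes in HT against HH, 300 in TT against TH and 789 in the average of these comparisons, in which DESeq2 called 13 genes. DESeq2 called 0 in each of the other 6 comparisons.

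With TTX on the cultures, the acetyl-CoA synthetases stood on opposite sides of 0 in the average over history. For Acss2 the libraries given TTX last overlapped those given vehicle last (edgeR adjusted p = 0.726). Averaged over history, mitochondrial Acss1 was 1.52-fold higher under the second TTX and was the member furthest above 0. The desaturase Scd1 was furthest below, at 0.65 of the vehicle level, followed by Fads2 at 0.83, Fads1 at 0.84 and Acss2 at 0.86. The genes of chain building, Acaca, Fasn and Elovl6, lay between 0.94 and 1.00 of it. In this average 9 of 10 members were below 0, against 50.3% of all genes tested, with a median log2 change of -0.12 beside -0.0011 for all genes. The 9 include Elovl6 at -0.00058 ± 0.13, whose sign changed in 5 of 9 fits with libraries left out. At an unadjusted p under 0.05, Scd1 and Fads2 were lower, as were 2.59% of all genes, and Acss1 was higher, as were 4.35%. Acss1 was 1 of the 306 genes (2.69%) whose 4 libraries given TTX last all lay above the 4 given vehicle last, and Fads2 was 1 of the 187 (1.64%) whose 4 libraries all lay below.

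**Figure D1:**
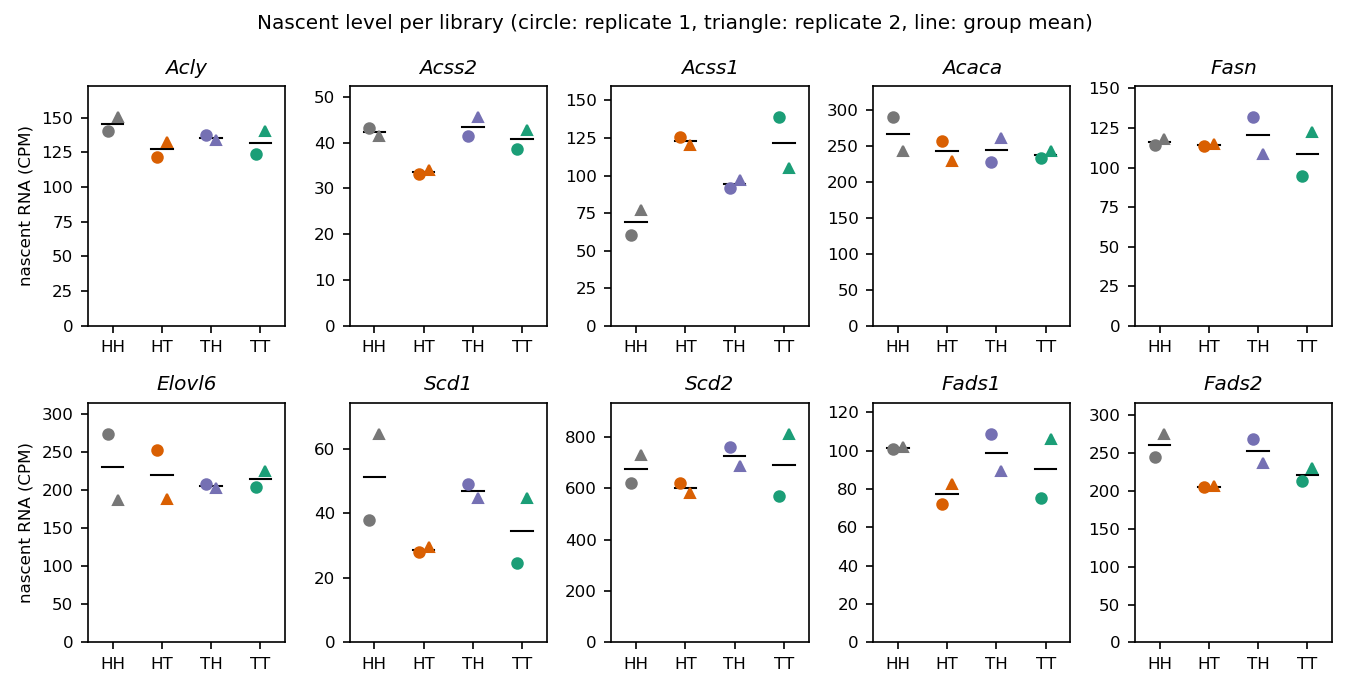
Nascent level in CPM (vertical axes, from 0, each with its own scale) of the 10 genes in the 4 groups, with 2 libraries per group as circle and triangle and the group mean as a line. Acss1 is at 60.8 and 76.9 CPM in HH and at 105 to 139 CPM in the 4 libraries given TTX last, while Fasn lies between 94.7 and 132 CPM across all 8.

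Of the enzymes that supply cytosolic acetyl-CoA, Acly, the ATP citrate lyase, stood at 140 and 150.2 CPM in the HH libraries, 122 and 133 in HT, 138 and 134 in TH, and 124 and 140.4 in TT. HT lay below HH without overlap, while TT overlapped TH. The log2 change was -0.19 ± 0.12 (SE, n = 2 libraries per group) in HT against HH and -0.037 ± 0.12 in TT against TH. Without TT replicate 1 the latter was 0.044.

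Acss2, the cytosolic and nuclear acetyl-CoA synthetase, stood at 43.2 and 41.5 CPM in HH, 33.1 and 34.0 in HT, 41.4 and 45.5 in TH, and 38.6 and 42.8 in TT. The HT pair was the lowest of the 4 groups and lay below every other library. The TT pair overlapped TH. Log2 changes were -0.34 ± 0.15 in HT against HH (edgeR adjusted p = 0.754) and -0.095 ± 0.14 in TT against TH, the latter being -0.17 if TT replicate 2 was left out and -0.022 if TH replicate 2 was.

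Acss1, the mitochondrial enzyme, stood at 60.8 and 76.9 CPM in HH, 126 and 120.4 in HT, 91.7 and 97.1 in TH, and 139 and 105 in TT. The HH pair was lowest, TH lay between, and the HT and TT pairs were highest and overlapped each other. Acss1 was 1.79-fold higher in HT than in HH (log2 0.84 ± 0.16, edgeR adjusted p = 0.519) and 1.29-fold higher in TT than in TH (0.36 ± 0.16, edgeR adjusted p = 1). Averaged over history the log2 change was 0.60 ± 0.11 (edgeR adjusted p = 0.192). It passed with DESeq2 (adjusted p = 0.0489) and in edgeR with no filter on low counts (adjusted p = 0.0272), and over all alternatives its adjusted p ran up to 0.712. Without HH replicate 2 the HT against HH difference was 1.02, with HH replicate 1, which stood apart in the activity-response genes, as the lone HH library. Without TT replicate 1 the TT against TH difference was 0.14, and without TT replicate 2 it was 0.56.

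A ratio of counts within a library does not depend on how libraries are scaled. Acss1 had 1.41 and 1.86 counts per Acss2 count in HH, 3.80 and 3.55 in HT, 2.21 and 2.13 in TH, and 3.59 and 2.45 in TT. The 4 libraries given TTX last were thus all above the others. The closest pair, TT replicate 2 (95% interval 2.09 to 2.89) and TH replicate 1 (1.82 to 2.70), differed by less than counting error, from exact binomial intervals that cover counting error only. Both ratios given here were chosen after the values were seen, and no test was made of them.

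Acaca, the acetyl-CoA carboxylase of the cytosol, stood at 289.6 and 242 CPM in HH, 257 and 229 in HT, 228 and 261 in TH, and 233 and 243 in TT. All groups overlapped, and the log2 changes were -0.13 ± 0.14 in HT against HH and -0.041 ± 0.14 in TT against TH. Without HH replicate 1 the former was 0.0063, and without TH replicate 2 the latter was 0.061.

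Fasn, the fatty acid synthase, stood at 114 and 118 CPM in HH, 114 and 115 in HT, 132 and 109 in TH, and 94.7 and 123 in TT. The TT and TH replicates differed more from each other than HT did from HH. The log2 changes were -0.026 ± 0.15 and -0.14 ± 0.15 in HT against HH and TT against TH, and without TT replicate 1 the latter was 0.023.

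Elovl6, which lengthens palmitate, varied more between replicates than between treatments. Replicate 1 of HH stood at 274 CPM and replicate 1 of HT at 252, while the other 6 libraries lay between 187 and 226. Log2 changes were -0.065 ± 0.19 in HT against HH and 0.064 ± 0.19 in TT against TH, and the average was -0.00058 ± 0.13. The first of these was 0.24 without HH replicate 1, 0.13 without HT replicate 2 and -0.32 without HH replicate 2, and the second was -0.0086 without TT replicate 2. In HH replicate 1 and HT replicate 1 the activity-response genes were also highest, at summed levels of 1791 and 742 CPM. Their part in the level of Elovl6 was not tested.

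Among the desaturases, Scd1 stood at 37.9 and 64.7 CPM in HH, 27.9 and 29.5 in HT, 49.2 and 44.7 in TH, and 24.7 and 44.6 in TT. HT lay below HH, and TT only just below TH. The log2 changes were -0.85 ± 0.31 in HT against HH (edgeR adjusted p = 0.747) and -0.42 ± 0.30 in TT against TH. They depended on single libraries: the first ran from -1.17 without HH replicate 1 to -0.41 without HH replicate 2, and the second from -0.92 without TT replicate 2 to -0.078 without TT replicate 1. Scd1 counts were low, from 99 to 248 per library. The CPM values of Acss2 lay within the range of those of Scd1, so Acss2 counts were low too.

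Scd2, the stearoyl-CoA desaturase that dominates in brain, stood at 620.2 and 728.5 CPM in HH, 621 and 583 in HT, 759.9 and 688 in TH, and 569 and 812 in TT. All groups overlapped, with log2 changes of -0.16 ± 0.18 and -0.068 ± 0.18, the second being 0.16 without TT replicate 1. Per 100 counts of Scd2 there were 6.12 and 8.88 of Scd1 in HH, 4.50 and 5.06 in HT, 6.47 and 6.50 in TH, and 4.33 and 5.50 in TT. Every library given TTX last had the smaller proportion of Scd1. The nearest libraries, TT replicate 2 (95% interval 4.78 to 6.29) and HH replicate 1 (5.06 to 7.34), differed by less than counting error. Scd and Scd2 are related genes that lie close together on the chromosome in RefSeq, and how reads that match both were counted is not given in the sources used here, so their split is uncertain.

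**Figure D2:**
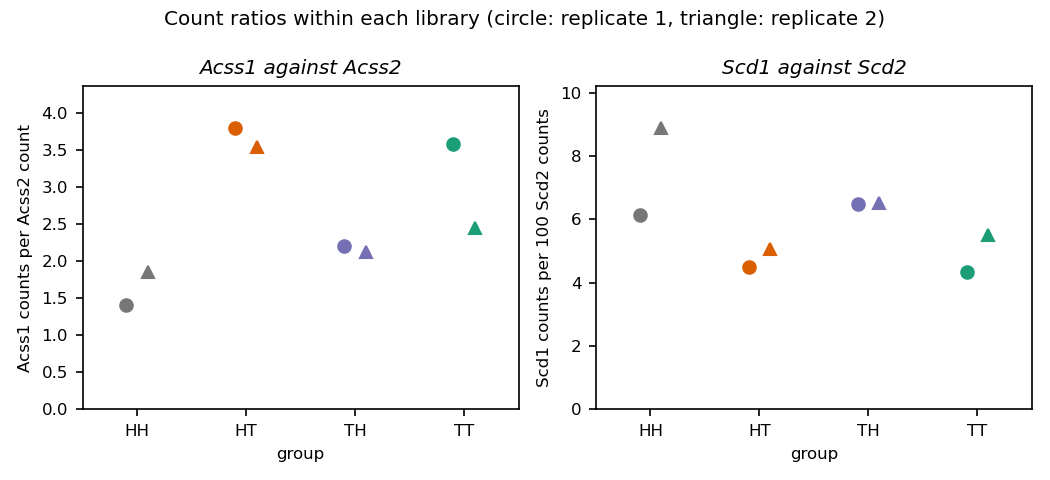
Count ratios within each of the 8 libraries (vertical axes, from 0), Acss1 per Acss2 on the left and Scd1 per 100 Scd2 on the right, by group, with replicate 1 as a circle and replicate 2 as a triangle. HT and TT lie at 2.45 to 3.80 on the left against 1.41 to 2.21 in HH and TH, and at 4.33 to 5.50 on the right against 6.12 to 8.88.

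Fads1 and Fads2, which desaturate polyunsaturated chains, are direct neighbours in RefSeq. Fads2 stood at 245 and 275 CPM in HH, 205 and 206 in HT, 268 and 237 in TH, and 213 and 229.7 in TT. HT lay below HH and TT below TH, and its log2 changes were -0.34 ± 0.13 (edgeR adjusted p = 0.737) and -0.19 ± 0.13. The average, -0.26 ± 0.089 (edgeR adjusted p = 0.516), ran from -0.31 to -0.22 over the libraries left out.

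Fads1 stood at 101 and 102 CPM in HH, 72.2 and 82.8 in HT, 109 and 89.2 in TH, and 75.2 and 106 in TT. HT lay below HH, whereas TT overlapped TH, since TT replicate 2 was as high as the vehicle libraries. The changes were -0.39 ± 0.17 (edgeR adjusted p = 0.756) and -0.12 ± 0.17, the second being 0.093 without TT replicate 1 and 0.020 without TH replicate 1. Fads3, the next gene of the cluster and no member, differed by -0.12 ± 0.14 in the average.

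**Figure D3:**
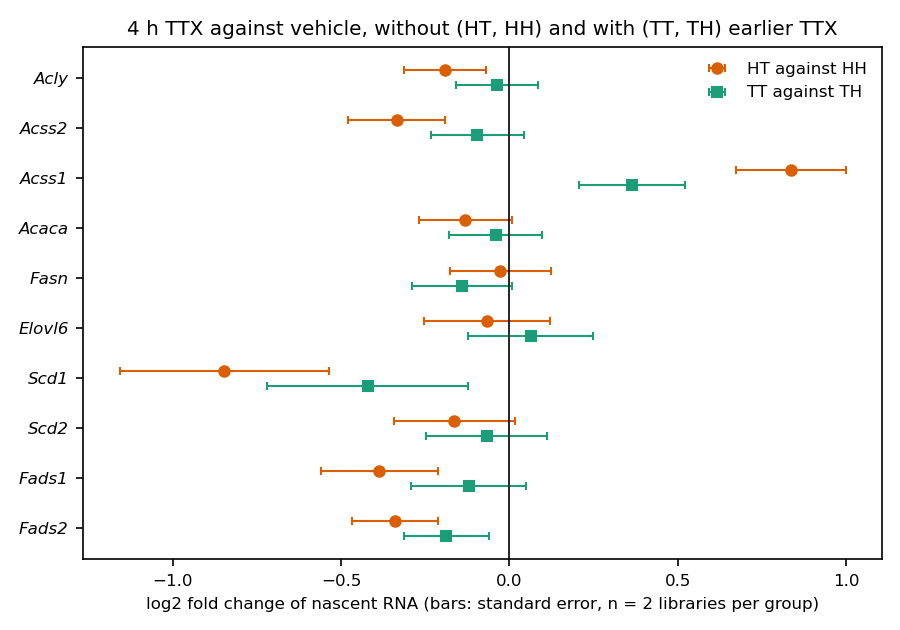
Log2 fold change of nascent RNA after 4 h of TTX (horizontal axis, bars are standard errors, n = 2 libraries per group) for the 10 genes, in HT against HH (circles) and TT against TH (squares). Acss1 lies to the right at 0.84 and 0.36, and Scd1 furthest to the left at -0.85 and -0.42.

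Put together for HT against HH, 9 of 10 members were below 0, against 49.8% of all genes tested, and 5 of them (Acly, Acss2, Scd1, Fads1 and Fads2) had both HT libraries below both HH libraries, a pattern found in 16.7% of all genes. The members' median was -0.18, beside 0.00071 over all genes. At an unadjusted p under 0.05, Acss2, Scd1, Fads1 and Fads2 were lower, as were 2.73% of all genes, and Acss1 was higher, as were 3.75%. Both HT libraries were above both HH libraries for Acss1, as for 18.6% of genes. In TT against TH, 8 of 10 were below 0, against 49.1%, with a median of -0.082 beside 0.0040 over all genes. Scd1 and Fads2 had both TT libraries below both TH libraries, as did 14.1% of genes, and the other 8 members did not. At an unadjusted p under 0.05, Acss1 was higher, as were 1.71% of genes (with both TT libraries above both TH libraries, as in 15.9%), and no member was lower, as were 0.923%. The TT replicates differed from each other by a median of 0.28 on the log2 scale over the members, compared with 0.16 over all genes, and TT replicate 2 was the higher in 9 of 10. Without TT replicate 1 the members' median in TT against TH was 0.033, and without TT replicate 2 it was -0.21.

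The promoters of the 4 members below HH at an unadjusted p under 0.05 (Acss2, Scd, Fads1 and Fads2) are shown because their nascent RNA was lower together in HT. RefSeq's promoter table (GRCr8, while the counts were made on rn6) held 6 of the 10 members, those of Acly, Acss2, Scd, Scd2, Fads1 and Fads2. Each sequence is the 250 bases before the transcription start, 5′ to 3′ on the gene's strand, with any match to CCAAT, the letters of the NF-Y box, or to its reverse complement ATTGG in capitals.

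Acss2, chr3:164464453-164464702 (GRCr8, plus strand): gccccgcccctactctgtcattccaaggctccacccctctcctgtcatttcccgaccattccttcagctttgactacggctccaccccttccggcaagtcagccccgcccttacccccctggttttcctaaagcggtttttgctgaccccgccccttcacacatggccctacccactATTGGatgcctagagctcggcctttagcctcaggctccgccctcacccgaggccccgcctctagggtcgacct
Scd, chr1:253231732-253231981 (GRCr8, minus strand): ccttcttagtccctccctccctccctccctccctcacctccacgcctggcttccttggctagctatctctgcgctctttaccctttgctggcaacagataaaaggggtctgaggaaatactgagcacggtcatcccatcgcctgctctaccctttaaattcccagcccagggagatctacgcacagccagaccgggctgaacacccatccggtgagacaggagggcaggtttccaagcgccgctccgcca
Fads1, chr1:216252442-216252691 (GRCr8, plus strand): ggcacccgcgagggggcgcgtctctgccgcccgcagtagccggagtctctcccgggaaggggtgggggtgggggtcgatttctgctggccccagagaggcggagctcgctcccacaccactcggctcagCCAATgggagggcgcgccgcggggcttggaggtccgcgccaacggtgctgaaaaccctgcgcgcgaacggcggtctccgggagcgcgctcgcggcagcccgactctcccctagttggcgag
Fads2, chr1:216172034-216172283 (GRCr8, minus strand): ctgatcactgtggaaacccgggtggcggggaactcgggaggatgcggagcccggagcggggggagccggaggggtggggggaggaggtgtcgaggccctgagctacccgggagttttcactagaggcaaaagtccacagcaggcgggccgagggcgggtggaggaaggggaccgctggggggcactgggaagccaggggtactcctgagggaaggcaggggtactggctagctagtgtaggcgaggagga

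Both strands were searched for TCACNCCAC (a sterol regulatory element), CCAAT and CACGTG (an E-box). CCAAT was found in 4 of the 6 promoters: once in Acly, Acss2 and Fads1, with first letters 71, 73 and 121 bases before the start, and at 97 and 54 bases in Scd2. It was present in 34.0% of the 33469 promoter windows of this length. Neither of the other motifs was found in the 6 windows, and they occurred in 0.974% and 5.59% of all windows. Of the printed promoters, Acss2 and Fads1 held CCAAT, and no match was found in the windows of Scd and Fads2.

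An earlier period of silence had no common direction in these genes. In TH against HH, 6 of 10 members were below 0 and 4 above, and in TT against HT 4 were below and 6 above, near the 49.8% and 49.9% of all genes below 0. Acss1 was the member furthest from 0 in the first, 1.37-fold higher in TH than in HH (log2 0.45 ± 0.16, edgeR adjusted p = 0.891), with both libraries higher, as in 16.7% of genes. The log2 value ran from 0.30 without HH replicate 1 to 0.64 without HH replicate 2. In the same comparison 13 of 14 oligodendrocyte lineage markers were above 0 (median 0.47), as were 13 of 15 dividing cell markers, and 8 of 10 inhibitory neuron markers were below 0. Their part in the level of Acss1 was not tested. In TT against HT the Acss1 value was -0.019 ± 0.16, and it was 0.18 without TT replicate 2 and -0.24 without TT replicate 1. Acly was lower in both TH than in both HH libraries (-0.099 ± 0.12), as were 13.4% of genes, and the value was -0.048 without HH replicate 2. Acss2 (0.28 ± 0.14) and Fads2 (0.11 ± 0.13) were higher in both TT than in both HT libraries, as were 18.2%. The comparisons share libraries, HH standing in both HT against HH and TH against HH.

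The difference between the TTX responses of cultures with and without a history, the interaction, did not pass for any member (edgeR adjusted p = 1 for each). For Acss1 it was -0.47 ± 0.23, the response in TT against TH being the smaller, and it ran from -0.69 without TT replicate 1 to -0.28 without TT replicate 2. For the other members it ran from -0.12 ± 0.21 in Fasn to 0.43 ± 0.43 in Scd1, and 8 of 10 were above 0, as were 51.2% of all genes. Without TT replicate 2 the members' median, 0.14, became 0.029.

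Other lipid genes were read from lists made with the members. Of 13 tested lipogenic regulators, none passed, 7 were above and 6 below 0 in the average over history, with a median of 0.00055. The smallest p belonged to Insig1 and Srebf1. Insig1, which retains the SREBP escort protein in the endoplasmic reticulum and is itself an SREBP target, stood at 47.6 to 81.7 CPM in the 4 vehicle libraries and 28.2 to 43.6 in the 4 TTX libraries (log2 -0.69 ± 0.18, edgeR adjusted p = 0.345). Srebf1, the gene of the SREBP that favours fatty acid enzymes, went the other way, with 180.4 to 259.9 CPM under vehicle and 285 to 345 under TTX (0.43 ± 0.12, edgeR adjusted p = 0.374). Neither overlapped between the second treatments, as was the case in 1.64% of genes for lower and 2.69% for higher levels.

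In the average over history, 49.7% of all genes tested were above 0 and 50.3% below. Genes that carry citrate out of mitochondria or supply NADPH and malonyl-CoA had 7 of 13 above 0 and a median of 0.0079. Slc25a1, the citrate carrier, was lowest among them at -0.72 ± 0.27, from 3.09 to 10.8 CPM per library, and the change was -1.1 without HT replicate 1 and -0.49 without HT replicate 2. Acacb, the mitochondrial carboxylase, stood at 0.28 ± 0.20, and at 0.14 without TH replicate 1 and 0.49 without TH replicate 2. The remaining elongases and desaturases, listed with other enzymes of chain lengthening, had 6 of 11 below 0 and a median of -0.11. Among them Tecr, an enzyme of chain lengthening, stood at -0.12 ± 0.093 and the elongase Elovl5 at -0.12 ± 0.11. Tecr ran from -0.19 without TH replicate 2 to -0.049 without TH replicate 1, and Elovl5 from -0.21 without HH replicate 2 to -0.020 without HH replicate 1 and HT replicate 1. Acyl-CoA synthetases and genes of glycerolipid assembly had 10 of 17 below 0 and a median of -0.018. In that list Gpam, which starts triglyceride synthesis, stood at 0.29 ± 0.092 (edgeR adjusted p = 0.484), and Acsbg1 at 0.23 ± 0.099. Gpam was higher under the second TTX with no overlap between the second treatments, as were 2.69% of all genes. Fatty acid oxidation genes had 12 of 14 above 0 and a median of 0.082. Among them the acyl-CoA dehydrogenase Acadl stood at 0.36 ± 0.12 and the carnitine carrier Slc25a20 at 0.29 ± 0.13, the latter without overlap, as Gpam. In HT against HH 11 of 14 oxidation genes were above 0 (median 0.14), and in TT against TH 7 of 14 (median 0.0195). With vehicle second, TH against HH had 13 of 14 above 0 (median 0.13).

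Cholesterol synthesis and uptake genes, which share SREBP control with the members, had 22 of 22 below 0 with a median of -0.47, so the members' median of -0.12 was nearer to that of all genes. Of these, 7 had all 4 TTX libraries below all 4 vehicle libraries, against 1 of the 10 members and 1.64% of all genes. Hmgcs1, an early enzyme of the pathway, stood at -0.66 ± 0.11 (edgeR adjusted p = 0.192), and passed with DESeq2 and with no filter on low counts. No test of the difference between the lists was made.

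**Figure D4:**
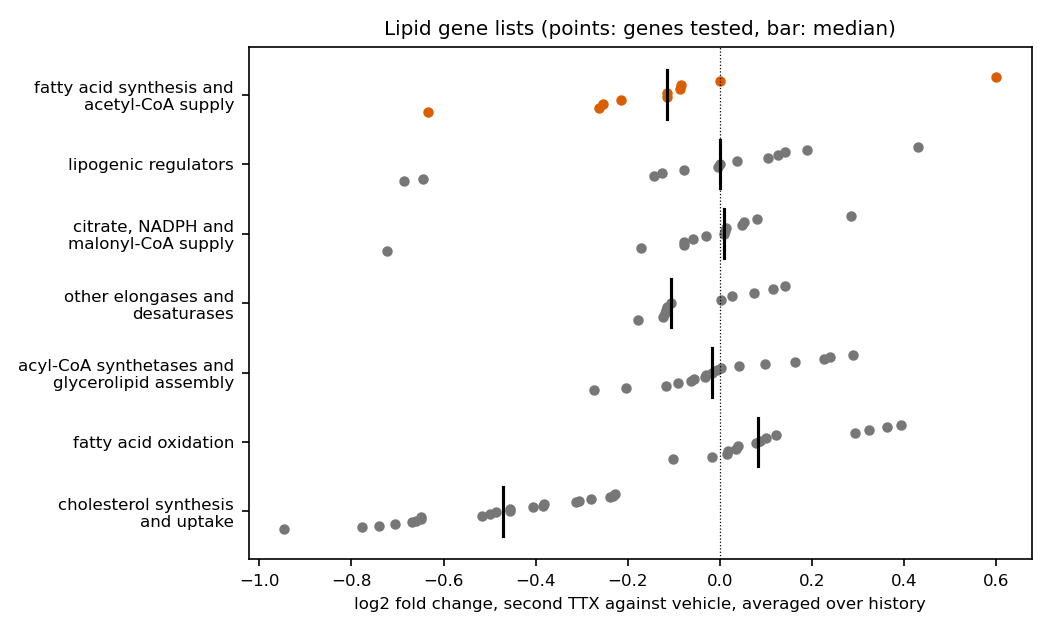
Log2 fold change under the second TTX, averaged over history (horizontal axis), of every tested gene in 7 lipid lists, with the median of each list as a bar. The fatty acid genes have a median of -0.12 with Acss1 at 0.60 and Scd1 at -0.63 apart from the rest, and the 22 cholesterol genes all lie below 0.

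No cell type marker passed under the second treatment (edgeR smallest adjusted p = 0.192). Summed marker levels were 547 to 769 CPM under vehicle and 783 to 1046 under TTX for the oligodendrocyte lineage (14 of 16 markers tested, 13 above 0), 208 to 261 against 298 to 380.4 for dividing cells (15 tested, 14 above 0), and 1492 to 1841 against 1759 to 2130 for astrocytes (10 of 11 tested, 9 above 0). Of the inhibitory neuron markers, 8 of 10 were below 0, with summed levels of 696 to 1153 against 597 to 707. Excitatory neuron markers summed to 967 to 1180 against 794 to 1166. The sums did not overlap between the second treatments for the oligodendrocyte lineage and dividing cells, and overlapped for astrocytes, inhibitory and excitatory neurons. Microglia markers reached at most 18.7 CPM in sum. No marker in these lists was at 0 in every library. The highest summed oligodendrocyte level, 1046 CPM, was in TT replicate 2. Every member except Acss1 was also higher in that library than in TT replicate 1. The part of cell composition in the members' values was not tested.

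The genes whose profile over the 8 libraries lay nearest to a member were found by the root mean square difference of centred log2 CPM. For Acss1 they were Lmo1 (0.093), Espl1 (0.12), Kif18b (0.12) and Rgma (0.13). Lmo1 encodes a LIM-domain protein, Espl1 the protease separase, Kif18b a mitotic kinesin and Rgma a guidance molecule. Each had its lowest level in HH replicate 1, as Acss1 did. For Fasn they were Slc39a7 (0.035), a zinc transporter, Mlec (0.059), Mtmr4 (0.060) and Gtf2h1 (0.061), all with small differences between groups. As the genes were chosen for their likeness to Acss1 or Fasn, these shared features follow largely from the choice.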

How the data were processed

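The authors deposited 1 table of raw read counts per gene symbol. The submitters' processing notes name FastQC, TopHat2, Bowtie2 and featureCounts, and genome build rn6. Tool versions, annotation, strand setting and the treatment of introns and multiply matching reads are not stated there. Ratios and summed levels of different genes were therefore read across libraries only, not as amounts of 1 gene against another. Columns were matched to samples by the leading number of the description. A further 2 columns were not used.

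The counts were fitted in R 4.3.3 with edgeR 4.0.16 after its expression filter and TMM scaling. A single model held the 4 group means (4 residual degrees of freedom), tested by robust quasi-likelihood, and p-values were adjusted by Benjamini-Hochberg over all 11372 genes tested. Standard errors, worked back from F, rest on the spread within all 4 groups. The common biological coefficient of variation was 0.128. Replicates differed beyond sampling noise (chi-square per degree of freedom 4.00 to 11.1). The fit was also run on simulated data with changes planted in HT that were larger than most described here. That run does not show whether smaller changes would be found. Alternatives used RLE scaling, no filter, DESeq2 1.42.0, only the groups compared, the replicate number as a block, and libraries left out. Promoters came from RefSeq.

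All members are named, then up to 4 genes of each other lipid list by smallest p in the average over history, and the 4 profiles nearest to Fasn and to Acss1. A gene that this rule names is not reported here. Members, lists and tests were chosen with earlier results of these data known. The labels give no batch, so none was fitted. Figures were drawn with matplotlib 3.10.9.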

Additional observations from a re-analysis of the deposited data

How the results depend on the processing

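With 2 libraries per group, and counts of 99 to 248 per library for Scd1, single libraries set much of what can be told. No gene passed in any comparison under RLE scaling, with the replicate block, or in fits of only the groups compared. For the average over history, 16 genes passed with no low-count filter and 13 with DESeq2, Acss1 among them each time. Leaving out libraries gave 0 to 39 genes in HT against HH, 0 to 1 in TT against TH, 0 to 121 in TH against HH, 0 to 8 in the average of the second TTX, 0 to 104 in the average of history and 0 to 2 in the interaction, the higher counts coming without HH replicate 2, except in TT against TH (without TH replicate 2). That leaves HH replicate 1, the library that stands apart, as the lone HH library, assumed to vary like the other groups.

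The members' median over the libraries left out ran from -0.21 to 0.033 in TT against TH, -0.046 to 0.15 in TT against HT, -0.22 to -0.076 in the average of the second TTX, -0.053 to 0.091 in the average of history and 0.029 to 0.22 in the interaction, the extremes coming without a TT library, except the 0.091 (without TH replicate 2). For HT against HH, Acaca ran from -0.26 to 0.0063 and Elovl6 from -0.32 to 0.24. For TT against TH, Fasn ran from -0.34 to 0.023, Acaca from -0.14 to 0.061, Acly from -0.13 to 0.044, Scd2 from -0.35 to 0.16, Elovl6 from -0.0086 to 0.13 and Fads1 from -0.39 to 0.093. The average for Elovl6 ran from -0.13 to 0.15, and Acss1 in TT against HT from -0.24 to 0.18. With the replicate block the average for Elovl6 was 0.0041, and no member changed its side of the threshold. Same-numbered libraries deviated together in HH and HT (r = 0.447 across genes, which are not independent) and not in the other 5 pairs of groups (-0.066 to 0.087), so the numbers were not taken to pair the samples. The causes were not tested. Of all recomputed values, 805 were classed as the same and 20 values of single genes changed direction. A further 20 counts or medians moved beyond the limit set for them, and 7 values of single genes newly passed the threshold. For a single gene, the same meant its direction and side of the threshold were kept. For counts and medians it meant a shift within the limit, whatever the sign. In TH against HH the members' median ran from -0.11 without TH replicate 1 to 0.028 without HH replicate 2.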
